A study of Mus musculus with 35 samples.

Results

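The nuclear-encoded subunits of the respiratory chain were followed in regulatory T cells (Tregs) of visceral adipose tissue (VAT) and spleen through the day. They were the genes of the count table whose symbols start with Nduf (complex I, apart from the assembly factors named Ndufaf), Sdha to Sdhd (complex II), Uqcr (complex III), Cycs (cytochrome c), Cox4 to Cox8 (complex IV) or Atp5 (complex V). Pseudogenes were left out, and a mean over all libraries of at least 5 CPM (counts scaled to a common library size) was required. Of 55011 symbols, 90 matched by name and 76 reached that level: 35 of complex I, 4 of complex II, 8 of complex III, cytochrome c, 12 of complex IV and 16 of complex V. Ndufa4 was counted in complex IV, where its protein sits. Ndufs5 was the member nearest above the level threshold, at 5.15 CPM, and Ndufb4 the nearest below it, at 4.78 CPM.

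The cells were CD4+ CD25+ Tregs, sorted in 2 rounds into pools of 1000, from male wild-type C57BL/6 retired breeders aged over 35 weeks. Lights were on for 12 h and off for 12 h, and both tissues were sampled at Zeitgeber time 0, 4, 8, 12, 16 and 20 (ZT0 is the start of light). There were 3 libraries for every tissue and time, except VAT at ZT20 with 2, which gave 17 VAT and 18 spleen libraries. Whether libraries of 1 group are from different mice is not stated in the labels, and p-values therefore reflect only their spread, which may be technical.

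The respiratory chain passes electrons from NADH (complex I) and succinate (complex II) through ubiquinone, complex III and cytochrome c to oxygen at complex IV, and pumps protons across the inner mitochondrial membrane. ATP synthase, complex V, uses that proton gradient to make ATP. Most subunits are encoded in the nucleus and a few in the mitochondrial genome, and Tregs are known to rely on oxidative metabolism more than conventional effector T cells do. Transcription of the nuclear genes is known to involve NRF-1, the ETS family factor GABP and YY1.

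The members lie scattered over the genome, and their promoters were searched for the motifs of these factors. Whether the motifs bear on levels over time was not tested. RefSeq promoters of GRCm38.p6, each 250 bases before to 50 after the gene's start, were matched for 64 of the 76 members. The NRF-1 core, GCGCA and GCGC with any 1 base between them, was present on either strand in 15 of the 64 (23.4%), against 11.1% of the 10612 tested genes with a promoter and 5.19% of all 27025 promoters. The ETS core CCGGAAG was present in 16 members (25%), against 19.6% of tested genes and 9.93% of all. The YY1 core AAGATGGCG was present in 7 members (10.9%), against 3.43% of tested genes and 1.64% of all. The ETS and YY1 strings can overlap in the letters AAG, and a match is a description, not a bound site. The 250 bases before the start are shown for 3 members whose rhythm was called in spleen and that hold a match there, with matches in capitals, NRF-1 cores as GCGC blocks and ETS cores on the other strand as CTTCCGG.
Cox6a1, chr5:115348959-115349208, minus strand: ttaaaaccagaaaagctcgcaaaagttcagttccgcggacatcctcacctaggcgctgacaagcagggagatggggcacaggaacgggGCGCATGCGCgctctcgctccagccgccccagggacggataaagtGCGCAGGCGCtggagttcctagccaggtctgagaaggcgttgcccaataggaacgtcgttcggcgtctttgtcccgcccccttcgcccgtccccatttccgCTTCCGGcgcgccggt
Cox6b1, chr7:30626115-30626364, minus strand: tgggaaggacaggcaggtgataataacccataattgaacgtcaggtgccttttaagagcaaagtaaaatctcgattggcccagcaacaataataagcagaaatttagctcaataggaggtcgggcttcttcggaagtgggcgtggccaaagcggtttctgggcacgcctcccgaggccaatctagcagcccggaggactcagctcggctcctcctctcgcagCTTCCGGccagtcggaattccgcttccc
Uqcrh, chr4:116075071-116075320, minus strand: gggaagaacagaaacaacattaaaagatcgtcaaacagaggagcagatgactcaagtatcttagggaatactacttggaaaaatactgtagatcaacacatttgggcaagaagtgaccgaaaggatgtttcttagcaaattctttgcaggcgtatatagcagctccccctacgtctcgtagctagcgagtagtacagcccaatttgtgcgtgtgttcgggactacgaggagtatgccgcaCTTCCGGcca
Cox6a1, a complex IV subunit, held 2 NRF-1 cores, at -162 and -117 from the start, and an ETS core at -16. Cox6b1, another complex IV subunit, held an ETS core at -28, and Uqcrh, the hinge protein of complex III, one at -10. Ndufa13, whose rhythm was also called in spleen, held none of the motifs, nor did Cox7a2, Ndufv2 and Atp5b, called in VAT. The other members called in VAT each held a motif. Atp5g3 and Atp5o held an NRF-1 core, Ndufa9 a YY1 core and Ndufs8 an ETS core. Sdhb and Cox6b1, called in both tissues, each held an ETS core. Any of the motifs was present in 51.6% of the members with a promoter and in 30.4% of tested genes. For complex IV the share was 30.0%.

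The libraries held 2069319 to 6260185 counts. Foxp3, the lineage factor of Tregs, ran from 431 to 837 CPM, and Il2ra, which encodes CD25, from 311 to 950 CPM, so both tissues carried the labelled cell type's markers. The 7 adipocyte markers summed to 4.72 to 24.98 CPM in VAT and 18.3 to 33.3 CPM in spleen. Most of this was Lipe, with medians of 15.2 CPM in VAT and 24.5 CPM in spleen, and Fabp4 had medians of 1.29 and 0.132 CPM. The other 5 (Adipoq, Plin1, Lep, Cidec and Ucp1) each had a median of 0 CPM in VAT. Summed B cell markers were higher in spleen (1166 to 3044 CPM) than in VAT (91.6 to 280 CPM), nearly all of it Ighm. Summed endothelial markers, nearly all of it Pecam1, ran from 22.1 to 52.7 CPM in VAT and from 157 to 340 CPM in spleen. Summed macrophage or monocyte markers ran from 0.726 to 7.49 CPM in VAT and from 16.9 to 74.1 CPM in spleen. The part of these cells in the differences between tissues was not tested.

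Between tissues, the respiratory chain genes as a group sat at similar levels, and single subunits differed in both directions. The members summed to 8042 ± 1290 CPM over the 17 VAT libraries and to 7929 ± 1065 CPM over the 18 of spleen (mean ± SD). Of the 76, 15 were higher and 18 lower in VAT (edgeR quasi-likelihood test, Benjamini-Hochberg adjustment over all 15910 genes tested, threshold 0.05). That is 43.4% of the members, beside 62.2% of all genes tested (28.4% higher and 33.8% lower). The median log2 fold change was -0.02 over the members and -0.10 over all genes, and the median size regardless of sign was 0.17 and 0.58. None of the members was at least 2-fold higher and 4 were at least 2-fold lower, beside 13.4% and 16.4% of all genes. In bulk samples a lower level cannot tell fewer cells with a transcript from less RNA per cell.

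The split depended on how libraries were scaled. Scaled to library totals instead of by trimmed mean of M values (TMM), 2 members were higher and 58 lower, and the median of all genes moved by -0.34 to -0.45. Of all 15910 genes, 11370 were called in either direction with library totals and 9896 with TMM. The members' median minus that of all genes was 0.08 under both scalings. Members are short, with a median transcript length of 745 bases against 2473 over genes tested, and the length slope, the gain in log2 CPM per doubling of transcript length, was higher in VAT (median 0.48, range 0.34 to 0.55) than in spleen (median 0.43, range 0.32 to 0.49). With the slope as a covariate 9020 of all 15910 genes were called. Of the members 29 were higher and 10 lower, and 25 of the 33 calls were kept with their sign. Atp5g1, Atp5mpl, Cox5b, Cox7b, Ndufs3 and Uqcr10, lower with TMM, were among those not kept (adjusted p 0.0698 to 0.886).

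**Figure D1:**
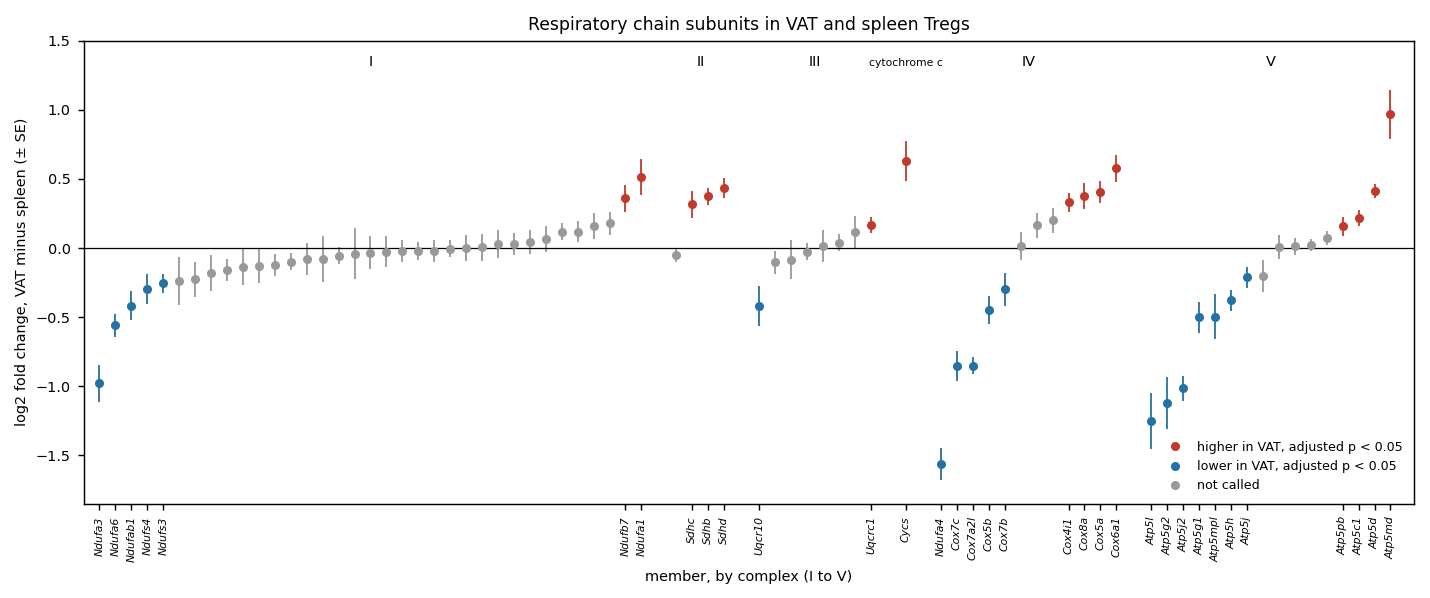
Log2 fold change of each of the 76 members, VAT minus spleen (y axis, estimate ± SE from the edgeR fit with TMM scaling over 17 VAT and 18 spleen libraries), ordered within complexes I to V and cytochrome c, with names under the called members. With TMM scaling 15 members (red) were called higher and 18 (blue) lower, and with library totals 2 and 58. Of all 15910 genes, 9896 were called with TMM and 11370 with library totals. Complexes IV and V hold the widest spread.

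Complex I takes electrons from NADH and is the largest of the complexes. Of its 35 members 2 were higher, 5 lower and 28 not called, with a median log2 fold change of -0.03. Ndufs3 was the 1 of the 7 core subunits that was called, lower by a log2 fold change of -0.25 ± 0.07 (SE, adjusted p = 0.0014). The other core subunits ran from -0.16 for Ndufs8 to 0.12 for Ndufv1. Ndufa3, a small accessory subunit, ran from 4.68 to 10.99 CPM in VAT (median 6.53) and from 9.70 to 22.5 CPM in spleen (median 14.4). Its ranges overlapped at their edges only, and its log2 fold change was -0.98 ± 0.13 (adjusted p = 4.2e-08). Ndufa6, a subunit of the LYR family, stood at -0.56 ± 0.09, and Ndufab1, the mitochondrial acyl carrier protein, at -0.42 ± 0.11. Ndufa1, needed for assembly of the membrane arm, was higher at 0.51 ± 0.13, and Ndufb7 at 0.36 ± 0.10. With library totals neither Ndufa1 (0.17, adjusted p = 0.227) nor Ndufb7 (0.01, adjusted p = 0.92) was called. Ndufb5, an accessory subunit of the membrane arm with 122.6 CPM per kb, was not called (-0.12 ± 0.08, adjusted p = 0.165).

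Complex II, succinate dehydrogenase, is both an enzyme of the TCA cycle and an entry point for electrons, and it has no subunit from the mitochondrial genome. Of its 4 genes, 3 were higher in VAT and 1 was not called, and the median log2 fold change was 0.34, which fell to 0.00 with library totals. Sdhb, the iron-sulfur subunit, ran from 150 to 306 CPM in VAT (median 200.4) and from 121 to 210 CPM in spleen (median 156). The ranges overlapped, the VAT mean was the higher at all 6 times, and the log2 fold change was 0.37 ± 0.06 (adjusted p = 1.21e-06). The membrane anchors Sdhd (0.43 ± 0.07, adjusted p = 3.96e-06) and Sdhc (0.32 ± 0.10, adjusted p = 0.00566) were higher too. Sdha, the flavoprotein that oxidises succinate, had a median of 510 CPM in VAT and 532 CPM in spleen, with ranges that overlapped almost fully, and was not called (-0.05 ± 0.04, adjusted p = 0.308). With library totals neither Sdhb, Sdhc nor Sdhd was called (adjusted p 0.27 to 0.803), and Sdha was called lower (-0.40). With the length slope as a covariate all 3 were called higher.

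Complex III moves electrons from ubiquinol to cytochrome c. Of its 8 members 1 was higher, 1 lower and 6 not called. Uqcrc1, a core protein and the most abundant member per kilobase (266 CPM per kb), was higher by 0.17 ± 0.06 (adjusted p = 0.00953) with TMM and at -0.18 with library totals. Uqcr10, a small subunit, was lower (-0.42 ± 0.15, adjusted p = 0.0128). Cycs, the soluble carrier between complexes III and IV, ran from 8.71 to 33.6 CPM in VAT (median 17.5) and from 6.79 to 17.0 CPM in spleen (median 10.9). Its mean was the higher in VAT at all 6 times, and its log2 fold change was 0.63 ± 0.14 (adjusted p = 0.000258). With library totals Cycs was not called (0.29, adjusted p = 0.0706). Of the 25-base runs in its transcript, 30.7% also occur in other genes, so reads of copies may be split.

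Complex IV, cytochrome c oxidase, reduces oxygen. Of its 12 members 4 were higher, 5 lower and 3 not called. Its median of 0.09 stood at -0.26 with library totals. Ndufa4, at chr6:11900292-11907497 (GRCm38), had the largest fall of all members. It ran from 7.35 to 27.2 CPM in VAT (median 18.8) and from 38.7 to 83.2 CPM in spleen (median 48.0). Every VAT library lay below every spleen library, and the log2 fold change was -1.56 ± 0.12 (2.95-fold lower, adjusted p = 1.16e-14). Over all alternatives it stayed between -1.91 and -1.32 and was called lower in each of 42. Cox7a2l is known for joining complexes III and IV into supercomplexes, and C57BL/6 mice are known to carry a shortened form that is defective in this role. It was the other member whose tissues did not overlap, and 17.8% of its 25-base runs also occur in other genes. It ran from 90.1 to 159.6 CPM in VAT (median 117) and from 170.2 to 296 CPM in spleen (median 218), with a log2 fold change of -0.85 ± 0.06 (adjusted p = 3.91e-15). Such a separation with VAT lower was seen for 2 of 76 members and 4.02% of all genes tested, and with VAT higher for 0 members and 6.40% of genes.

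Cox7c (-0.85 ± 0.11), Cox5b (-0.45 ± 0.10) and Cox7b (-0.30 ± 0.12) were lower as well. Of the 25-base runs, 25.3% in Cox7c and 19.3% in Cox5b also occur in other genes. The subunits called higher were Cox6a1 (0.58 ± 0.09), Cox5a (0.41 ± 0.08), Cox8a (0.38 ± 0.10) and Cox4i1 (0.33 ± 0.07), and with library totals only Cox6a1 of these was called higher. Cox6a1 ran from 28.2 to 72.1 CPM in VAT (median 40.5) and from 16.9 to 47.2 CPM in spleen (median 29.4), with overlapping ranges, and 23.9% of its 25-base runs also occur in a pseudogene. In the isoform pairs of complex IV the widely expressed form made up nearly all reads. Cox4i1, the most abundant member of the complex at 481 CPM per kb, had a mean of 403 CPM in VAT and 326 CPM in spleen, while Cox4i2, the form of lung and hypoxic cells, had 1.46 CPM in VAT and 0.132 CPM in spleen. The muscle forms Cox6a2, Cox7a1 and Cox8b each stayed at or below 0.281 CPM on average in either tissue. Cox4i2 and these muscle forms were too low to be tested.

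AA467197, the mouse counterpart of human C15orf48, encodes a paralogue of Ndufa4 that can take its place in complex IV, and its primary transcript carries miR-147. It is not a member by name and was looked at after the values of Ndufa4 were seen. AA467197, at chr2:122636986-122641191 (GRCm38), ran from 157.5 to 551 CPM in VAT (median 369) and from 0 to 4.24 CPM in spleen (median 0). No library of either tissue overlapped the other, and its log2 fold change was 10.98 ± 0.31 (adjusted p = 1.8e-18), a size that depends on the prior count of the fit because spleen was near 0. In VAT it therefore exceeded Ndufa4 (17.7 ± 5.16 CPM, SD, n = 17) in every library, and in spleen it lay below Ndufa4 (53.4 ± 13.5 CPM, SD, n = 18) in every library. The miRNA itself was not measured.

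**Figure D2:**
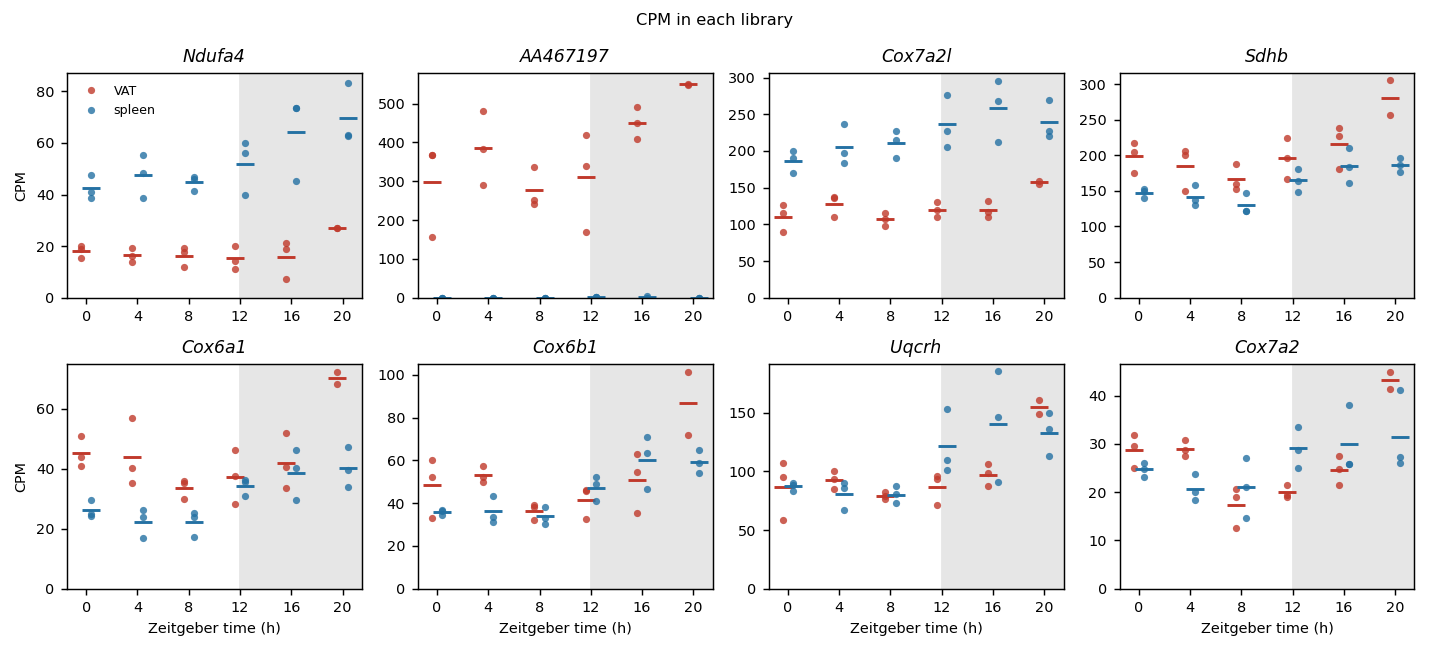
CPM in each library (points) and group means (bars) at each Zeitgeber time for 7 members and AA467197, VAT red and spleen blue, dark phase grey. Ndufa4 and Cox7a2l are lower in every VAT library, AA467197 is near 0 in spleen, and the 2 VAT libraries at ZT20 are the highest of VAT in all 8 panels.

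Complex V is ATP synthase. Of its 16 members 4 were higher, 7 lower and 5 not called, and its 68.8% called is near the 62.2% of all genes. With TMM the F1 head, where ATP is formed, had 2 of 5 members higher and none lower. Atp5d, the delta subunit, stood at 0.41 ± 0.05 (adjusted p = 1.95e-09) and Atp5c1, the gamma subunit of the rotor, at 0.22 ± 0.06. The catalytic Atp5b (0.07 ± 0.05) and its partner Atp5a1 (0.02 ± 0.04), the 2 most abundant members of the complex with 533 and 388 CPM per kb, were not called. With library totals Atp5d was not called (0.07, adjusted p = 0.188). Atp5c1 (-0.13, adjusted p = 0.0298), Atp5b (-0.27), Atp5a1 (-0.33) and Atp5e (-0.55) were called lower with that scaling. The other 11 members, of the membrane part and the stalk, had 2 higher and 7 lower with TMM. Whether the head and the rest differed from each other was not tested.

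Small subunits of the membrane part made up the other 3 members that were at least 2-fold lower in VAT. Atp5l, subunit g, ran from 2.93 to 11.5 CPM in VAT (median 5.76) and from 6.89 to 26.7 CPM in spleen (median 12.9), a log2 fold change of -1.25 ± 0.20 (adjusted p = 1.35e-06). Of the 25-base runs in Atp5l, 16.8% also occur in other genes. Atp5j2, subunit f, ran from 17.6 to 50.1 CPM (median 29.2) and from 42.5 to 91.9 CPM (median 59.2), a change of -1.02 ± 0.09 (adjusted p = 5.07e-12). In both genes the ranges overlapped, and every VAT group mean lay below that of spleen at the same time.

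The Atp5g genes all encode the same mature c-ring protein, the turning part of the proton channel. Atp5g2 had medians of 3.55 CPM in VAT and 7.52 CPM in spleen and was lower (-1.12 ± 0.19, adjusted p = 2.6e-06). Atp5g1 was lower too (-0.50 ± 0.11), and Atp5g3, which carried most of the c-ring signal with 165 CPM per kb against 10.1 for Atp5g2 and 6.27 for Atp5g1, was not called (0.01 ± 0.09, adjusted p = 0.956). Of 25-base runs in Atp5g2, 40.8% occur in other genes, mostly pseudogenes, so its level is uncertain. Atp5mpl (-0.50 ± 0.16) was lower and Atp5md (0.97 ± 0.18, adjusted p = 1.27e-05), both small subunits of the membrane part, had the largest rise of all members. Atp5md ran from 4.41 to 22.2 CPM in VAT (median 9.98) and from 2.87 to 9.54 CPM in spleen (median 5.48), with overlapping ranges and the higher mean in VAT at all 6 times.

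Over the day, few members passed the test of rhythm in either tissue, while most fitted peaks fell in the dark phase. Rhythm was tested as a cosine and sine of 24 h within each tissue, and an amplitude is the fitted log2 difference from peak to trough. In VAT 9 of 76 members were called rhythmic, and in spleen 5, beside 1.88% and 1.99% of all genes. With each library's length slope as a covariate the counts were 0 and 1. Over all 15910 genes they went from 299 and 316 to 22 and 102. In VAT the slope and ZT20 cannot be told apart, as given below. The fitted peak fell in the dark phase (ZT12 to 24) for 71 of 76 members in each tissue (93.4%), beside 51.7% of all genes in VAT and 50.4% in spleen. With the slope as a covariate it did so for 50 members in VAT and 57 in spleen. Dark-phase peaks were as frequent among the 81 cytosolic ribosomal protein genes tested, which also have short transcripts (98.8% in VAT and 97.5% in spleen), and among the 8 mitochondrial genome genes tested (100% in both). At an unadjusted p under 0.05, 45 members (59.2%) varied in VAT and 38 (50%) in spleen, beside 17.5% and 15.6% of genes. Those counts were 9 and 11 with the slope as a covariate, and 9 and 20 without ZT20. The median amplitude was 0.55 in VAT and 0.45 in spleen, and over all genes 0.52 and 0.48.

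The score of a complex, the mean over its members of log2 CPM minus each gene's mean over all libraries, described the time course. The score of all members in VAT stood at 0.41 and 0.50 in the 2 libraries of ZT20 and between -0.35 and 0.12 in the 15 others, so the VAT course rests on ZT20. In spleen the 3 libraries of ZT20 stood between 0.19 and 0.49 and the 15 others between -0.30 and 0.47, with group means above 0 at ZT12, ZT16 and ZT20. The fitted peaks of the score were at ZT20.6 in VAT and ZT17.3 in spleen, with amplitudes of 0.48 and 0.43. Complex IV had the largest score amplitude of complexes I to V, 0.57 in both tissues, and complex II the smallest in VAT (0.33), with complex V the smallest in spleen (0.34). The scores of all 5 complexes were lowest at ZT8 or ZT12 in VAT and at ZT0 or ZT8 in spleen.

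**Figure D3:**
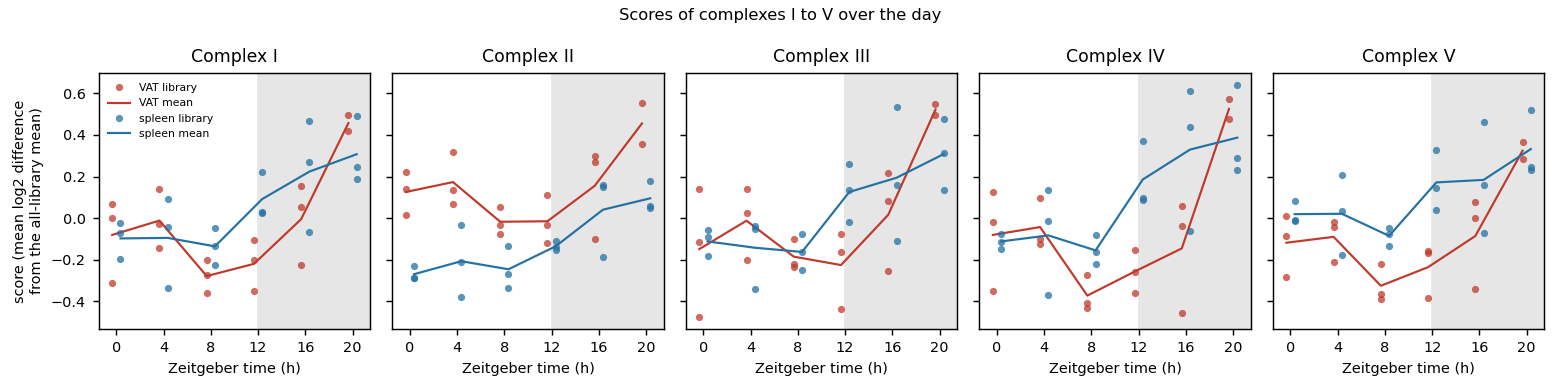
Score of complexes I to V (y axis, mean over members of the log2 difference from the gene's mean over all libraries) in each library at each Zeitgeber time, with lines through group means, VAT red and spleen blue, dark phase grey. In each panel the 2 VAT libraries at ZT20 stand above the VAT group means of all other times, while spleen means are raised from ZT12 on.

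The members called rhythmic in VAT came from complexes I, II, IV and V. Cox7a2, the widely expressed form of this complex IV subunit, had the largest amplitude of those called. It held 41.4 and 44.9 CPM in the 2 libraries of ZT20 and 12.5 to 31.7 CPM in the other 15, and its amplitude was 1.03 ± 0.21 with the peak at ZT21.8 (adjusted p = 0.0187). Ndufv2, an iron-sulfur core subunit of complex I, held 129.7 and 157 CPM at ZT20 and 65.3 to 116 CPM at the other times (0.70 ± 0.14, adjusted p = 0.0187). In both genes no other VAT library reached the level of ZT20. Also called were Ndufa9 (0.72 ± 0.16) and Ndufs8 (0.73 ± 0.17) of complex I, and Atp5g3 (0.86 ± 0.21), Atp5o (0.61 ± 0.14), which links the head and the stalk of ATP synthase, and Atp5b (0.49 ± 0.12).

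In spleen the called members were Cox6a1, Uqcrh, Cox6b1, Ndufa13 and Sdhb, with peaks from ZT16.6 to ZT17.6. Cox6a1 held 29.4 to 47.2 CPM in the 9 libraries of ZT12 to ZT20 and 16.9 to 29.5 CPM in the 9 of ZT0 to ZT8, which met only at their edge. Its amplitude was 1.00 ± 0.19 (adjusted p = 0.0129). Uqcrh held 91.0 to 185 CPM from ZT12 to ZT20 and 66.8 to 90.2 CPM from ZT0 to ZT8, with no overlap (0.95 ± 0.18, adjusted p = 0.00874). Ndufa13, also known as GRIM-19, had an amplitude of 0.74 ± 0.17 (adjusted p = 0.031), and its exons overlap Tssk6 on the other strand, whose reads cannot be told apart without strand.

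Sdhb and Cox6b1 were called in both tissues, 2 of 76 members beside 0.308% of all genes. Sdhb had an amplitude of 0.55 ± 0.13 in VAT (peak ZT19.3, adjusted p = 0.0352) and 0.52 ± 0.12 in spleen (peak ZT17.6, adjusted p = 0.0356). Cox6b1 held 71.8 and 101.5 CPM in VAT at ZT20 against 31.9 to 63.1 CPM at other times, and in spleen 41.1 to 70.7 CPM from ZT12 to ZT20 against 30.1 to 43.5 CPM from ZT0 to ZT8. Its amplitudes were 0.86 ± 0.21 (adjusted p = 0.0446) and 0.92 ± 0.19 (adjusted p = 0.0195). Members with little variation over the day were Sdha (0.13 ± 0.09 in VAT, 0.10 ± 0.09 in spleen) and Ndufs1, the largest core subunit of complex I (0.14 ± 0.15 and 0.11 ± 0.14). Neither passed the test in either tissue.

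**Figure D4:**
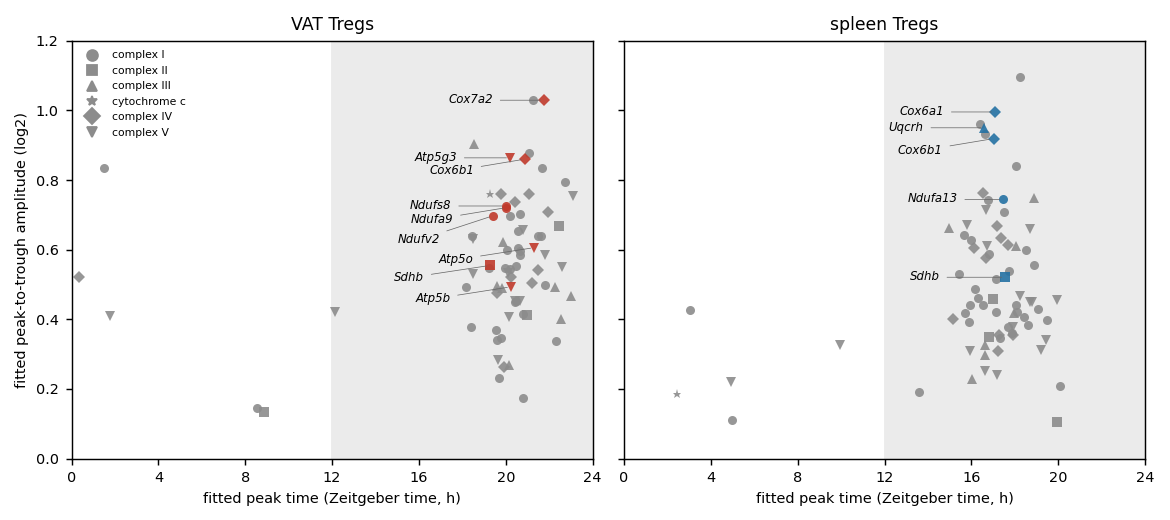
Fitted peak time (x axis, Zeitgeber time in h) and peak-to-trough amplitude (y axis, log2) of each of the 76 members in VAT and spleen, with the symbol shape giving the complex, colour marking members called rhythmic (9 in VAT, 5 in spleen) and grey the others. In each tissue 71 members peak in the dark phase (shaded).

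No member was called different in rhythm between tissues by edgeR, where 1 gene of 15910 was (0.00629%). DESeq2 called none of the members either. At an unadjusted p under 0.05 the count was 11 of 76 (14.5%), beside 9.09% of all genes. The smallest was that of Cox7a2, whose fitted peak was at ZT21.8 in VAT and ZT17.2 in spleen (unadjusted p = 0.00444, adjusted p = 0.329). A later peak in VAT than in spleen is thus described by the fitted values and did not pass the test for any single member.

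The rhythm calls rested on few libraries and moved with the length slope. In VAT the slope was 0.34 to 0.36 in the 2 libraries of ZT20 and 0.44 to 0.55 in the 15 others. In spleen it was 0.34 to 0.37 at ZT20 and 0.32 to 0.49 at the other times, where the library with 0.32, ZT16 B, also had the highest member score outside ZT20 (0.47). The slope was computed from the same counts, and in VAT it set ZT20 apart from every other library. A fit with the slope therefore cannot tell ZT20 of VAT from the slope. Whether transcript length or time underlies the calls was not tested. With the slope as a covariate, 0 members were called rhythmic in VAT and 1, Uqcrh, in spleen (amplitude 0.57, adjusted p = 0.0366), and the median amplitude was 0.22 in VAT and 0.26 in spleen. In VAT no member was called without ZT20 and 0 without either of its 2 libraries, A or C. The count in VAT was 1 without ZT8 B or ZT8 C, 2 without ZT4 C or ZT12 B, 3 without ZT8 D or ZT12 D, 4 without ZT0 A, 15 without ZT4 B, 17 without ZT16 B and 28 without ZT0 C. In spleen it was 2 without ZT16 B, 3 without ZT16 C, ZT20 B, ZT20 C, ZT4 C or any 1 library of ZT8, 8 without ZT0 C of VAT, 12 without ZT4 B and 13 without ZT16 A. Counts over all genes moved too. In VAT these were 299 as reported, 17 without ZT20 and 1008 without ZT0 C. In spleen they were 316 as reported, 98 without ZT16 B and 569 without ZT16 A.

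**Figure D5:**
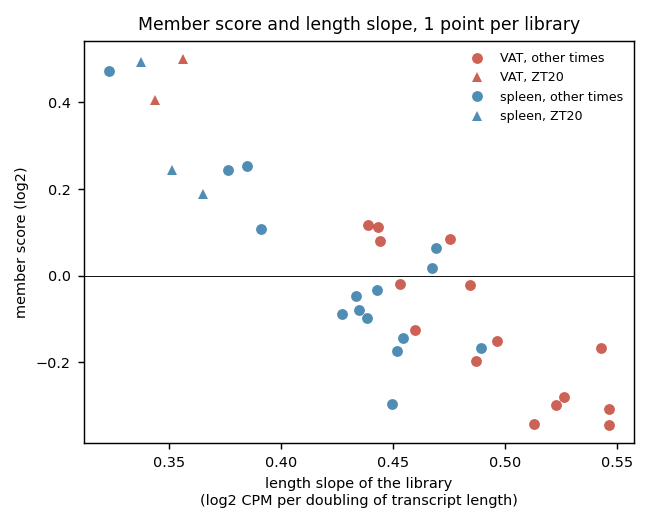
Score of all 76 members (y axis, log2) against the library's length slope (x axis, log2 CPM per doubling of transcript length), 1 point per library, VAT red and spleen blue, triangles for ZT20. The 2 VAT libraries of ZT20 lie at slopes of 0.34 to 0.36 with scores of 0.41 and 0.50, and libraries with slopes above 0.50 have scores below 0. The points share the short length of the members.

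Genes that serve the chain without being its nuclear subunits gave the surroundings. Of 13 protein genes of the mitochondrial genome 8 were tested, of which 6 were lower and 1 higher in VAT (87.5% called, beside 62.2% of all genes). They included mt-Nd5 (-0.85 ± 0.07) and mt-Nd4 (-0.66 ± 0.06) of complex I and mt-Cytb (-0.82 ± 0.10) of complex III, while mt-Nd1 was higher (0.21 ± 0.08). Of 45 tested assembly factors 5 were higher and 16 lower (46.7% called). Sdhaf1, which helps to insert iron-sulfur clusters into Sdhb, had a log2 fold change of -1.69 ± 0.15, and Cox17, the copper chaperone of complex IV, -1.64 ± 0.14.

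Of 13 TCA cycle genes 8 were higher and 1 lower (69.2% called, near the 62.2% of all genes). Idh3a (0.52 ± 0.07) and Ogdh (0.49 ± 0.07) showed the largest rises. Of 9 genes for carriers, channels and uncoupling 7 were higher and none lower (77.8% called). The median log2 fold change was 0.17 over the TCA cycle genes and 0.33 over the carriers, beside -0.10 over all genes. These lists were not examined with library totals, where the median of all genes moved by -0.34. Slc25a3, the carrier that brings phosphate to ATP synthase, averaged 1489 ± 89.0 CPM over the 17 VAT libraries and 733 ± 78.6 CPM over the 18 of spleen (mean ± SD), with no overlap between the tissues (1.03 ± 0.04, adjusted p = 1.55e-23). Ucp2 (0.72 ± 0.06) and Slc25a4, an ADP/ATP carrier (0.55 ± 0.07), were higher as well. Of 13 regulators 1 was higher, Yy1 (0.32 ± 0.08), and 4 were lower (38.5% called), among them Tfam, which packages mitochondrial DNA (-0.70 ± 0.07). Of the 81 cytosolic ribosomal protein genes 1 was higher and 74 lower (92.6% called). Of these genes 48 were called rhythmic in spleen and 0 in VAT, where 51 (63%) had an unadjusted p under 0.05 and the median amplitude was 0.48, and none was called different in rhythm between tissues.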

How the data were processed

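RNA of 1000 sorted Tregs per library was primed with oligo(dT), amplified and sequenced as paired reads of 25 nt, per the labels' protocols. The authors deposited counts of reads per gene symbol. The submitters' processing notes name STAR 2.7.3a, featureCounts and the build mm10. Annotation, strand setting and the handling of multiply matching reads were not given in the sources used here, so overlapping genes and near copies are uncertain: 24 members share over 15% of their 25-base runs with other genes.

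Tests on these counts used edgeR 4.0.16 in R 4.3.3 (filterByExpr over the 12 groups, TMM scaling, robust quasi-likelihood tests, Benjamini-Hochberg adjustment over 15910 genes, threshold 0.05). For the tissue contrast, the 6 spleen group means were averaged and subtracted from the average of the 6 in VAT. Rhythm used 1 model with a 24 h cosine and sine per tissue. CPM are TMM-scaled, and log2 CPM had a prior count of 2. DESeq2 1.42.0, other scalings, a replicate block and leaving out libraries were alternatives, and the tests were tested on simulated data. Lengths and positions are from GENCODE M21 (GRCm38), which matched 75 members. In each group, libraries were compared pairwise (34 pairs), and none agreed within sampling noise. Replicate letters did not pair the tissues (17 pairs, r from -0.11 to 0.06).

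Members and gene lists were chosen with earlier results of these data known. Named members were the 10 largest changes in each direction, those called rhythmic, the 2 most abundant of each complex, complex II, cytochrome c, isoform sets and those nearest the level threshold. From each other list at most 5 called genes were named. Some items are not reported here. AA467197 and, outside this rule, Atp5c1, Atp5e, Atp5pb, Cox5b, Cox7b, Ndufab1, Ndufs1, Ndufs3, Ndufv1 and Uqcr10 were named after their values were seen.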

Additional observations from a re-analysis of the deposited data

How the results depend on the processing

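Between tissues, the counts of members higher and lower were 15 and 18 as reported, 2 and 58 with library totals, and 29 and 10 with the length slope as a covariate. In the same order, 9896, 11370 and 9020 of all 15910 genes were called in either direction. Among members at a mean of at least 20 CPM, 11 were lower, since fewer genes were counted. With library totals the median log2 fold changes were -0.38 for complex I, -0.001975 for II, -0.35 for III, -0.26 for IV and -0.44 for V. Among named members, that scaling turned the sign of Cox6b1 (-0.14) and Ndufa13 (-0.17), called under neither scaling. It also turned that of Cox7a2 (-0.33), Atp5g3 (-0.34), Ndufa9 (-0.23), Atp5o (-0.34), Atp5b (-0.27), Atp5a1 (-0.33) and Ndufv1 (-0.23). Of members called higher with TMM, Atp5c1 (-0.13, adjusted p = 0.0298), Uqcrc1 (-0.18, adjusted p = 0.0023) and Atp5pb (-0.19, adjusted p = 0.00716) turned in sign and were called lower. The sign also turned for Cox4i1 (-0.01358) and Sdhc (-0.02972), which were then not called. Leaving out 1 library gave 14 to 18 members higher and 16 to 19 lower, and medians of -0.06 to 0.005 for complex I, 0.32 to 0.37 for II, -0.05 to 0.03 for III, 0.57 to 0.70 for cytochrome c, 0.07 to 0.13 for IV and -0.12 to -0.06 for V. Of the 23 members named by the rule and called between tissues, 10 kept call and direction in every alternative, and the others lost them in at least 1. The 966 alternative values kept them in 953 cases, but 35 of the 42 alternatives only left out 1 library.

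Members called rhythmic in VAT and spleen numbered 9 and 5 as reported, 19 and 15 with DESeq2 (which gave no adjusted p for 9 members in VAT), 0 and 1 with the length slope, 0 and 3 without ZT20, 0 and 10 with each tissue fitted alone, and 20 and 3 with the 6 times as a factor. In VAT it was 4 with RLE size factors and 2 with library totals, and in spleen 9 with no filter on low counts. With a replicate block, whose letters did not pair the tissues, it was 2 and 3. Over all genes, 299 in VAT and 316 in spleen were called as reported, and 663 and 853 with DESeq2. The all-gene counts were 22 and 102 with the length slope, 17 and 284 without ZT20, and 124 and 171 with the replicate block. Leaving out 1 library gave 0 to 28 in VAT, 2 to 13 in spleen and 0 to 0 for the difference between tissues. For the moves other than those made by dropping genes or samples the cause was not tested. Members with few counts, such as Ndufs5 with 664 over all libraries, are limited by depth.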
